A study of Rattus norvegicus with 2 samples.

Results

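Chromosome 2 of the rat, leaving out a pair of intervals of 25 Mb that the study enlarged (105 to 130 Mb and 140 to 165 Mb), was covered by 15097 of the 231247 array probes placed on chromosomes 1 to 20 and X. Members were the probes that were not controls, carried no outlier mark in either channel on either array, were placed on chromosome 2 of the assembly rn4 and started outside those intervals, and spots of a probe were averaged. Divided into 1 Mb fragments, they fill 209 of the 2731 fragments of the genome. The samples were kidneys of 2 untreated male Wistar rats that were 5 weeks old, and they form 1 group of normal kidney without controls. Genomic DNA of each rat was precipitated with the monoclonal antibody N45.1 against 8-oxoG, labelled with Cy5 and hybridised with Cy3-labelled input DNA that had not been precipitated. Each rat was read on its own Agilent Rat Genome CGH array, and the dyes were not swapped, so a dye difference and an enrichment cannot be told apart.

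8-Oxoguanine (8-oxoG) is guanine oxidised by reactive oxygen species, and it can pair with adenine during replication. Cells remove it by base excision repair, which the glycosylase OGG1 begins. Its amount at a site therefore depends on formation as well as on removal.

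The level given here is log2(IP/input) after each array was centred on its own median, so a level of 0 means the middle of all probes of that array, and does not mean that 8-oxoG was missing. Neighbouring probes of chromosome 2 lay 13785 bases from start to start in the mean and 10186 bases in the median, from 3388 at the 5th percentile to 32233 at the 95th, and the widest gap was 812045 bases. On replicate 1 the 15097 probes had a median IP intensity of 92.3 and a median input intensity of 82.1, and on replicate 2 these were 69.1 and 63.8. Of these probes, 11768 (77.9%) had IP and input signals well above background on each array. With 2 arrays, their number limits the precision of every level.

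The chromosome as a whole lay near the array median, above the rest of the genome. The mean level of the 15097 probes was 0.09 on replicate 1 and -0.02 on replicate 2, which gave 0.03 ± 0.08 (SD, n = 2). The rats thus lay on opposite sides of 0, and limma across the 21 chromosomes gave an adjusted p of 0.609 against 0. The mean of both rats ranged over the alternatives from -0.05, with normexp background correction, to 0.08, before dye normalization, and was 0.0042 with the trend on input brightness removed. The normexp alternative also took median signals in place of the processed intensities and added an offset of 50. The 212713 probes of all other chromosomes had means of -0.02 and -0.10. Set against them, chromosome 2 was higher by 0.11 on replicate 1 and by 0.08 on replicate 2, with a mean of 0.09 (limma, adjusted p = 0.0192). In this comparison of each chromosome with the rest, 9.52% of the 21 chromosomes were called above and 14.3% below. In the mean of both arrays chromosome 2 had the highest difference, and chromosome 11 was next at 0.09 (limma, adjusted p = 0.0210). On replicate 2 alone chromosome 11 was slightly higher, with 0.0791 against 0.0776. The difference of chromosome 2 was positive on both arrays and under every alternative processing that was run. It no longer passed limma's threshold with normexp background correction (0.0098, adjusted p = 0.904), with only probes well above background (0.08, adjusted p = 0.167) or with the trend on input brightness removed (0.08, adjusted p = 0.0788). Limma's prior degrees of freedom set how far standard errors are pooled. With only probes well above background they were 2.15, against infinite in the main fit. Over all alternatives, limma's adjusted p ran from 9.46e-05, before dye normalization, to 0.904.

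**Figure D1:**
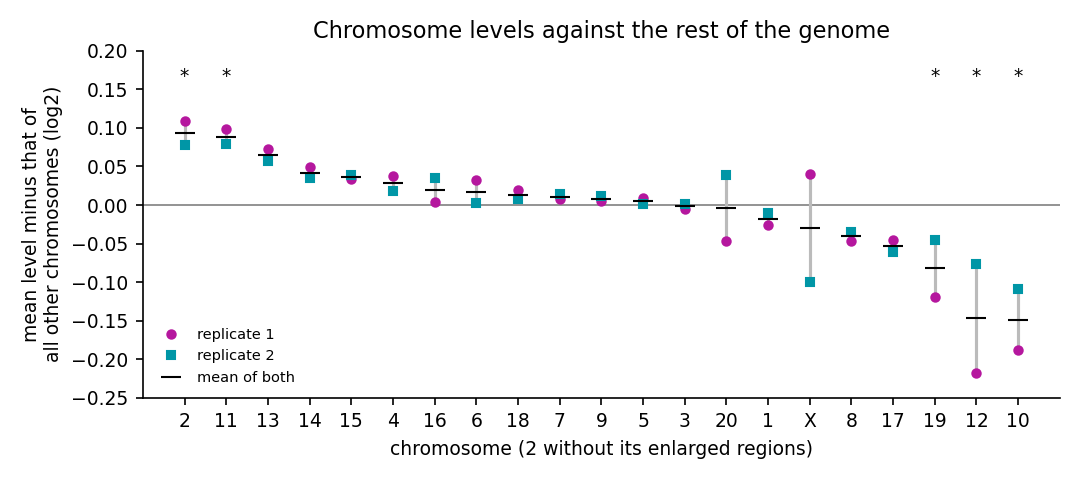
Mean level of each chromosome minus that of all other chromosomes (log2, vertical axis), ordered by the mean of both arrays, with a point for each replicate, a grey line joining them and a black bar for the mean. Asterisks mark chromosomes with a limma adjusted p under 0.05, and chromosome 2 lies at the upper end with 0.11 and 0.08.

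The members were also set against the enlarged intervals of the same chromosome, whose levels lay on either side of theirs. The interval from 105 to 130 Mb, with 1618 probes, had mean levels of 0.06 on replicate 1 and -0.06 on replicate 2, and the interval from 140 to 165 Mb, with 1819 probes, had 0.11 and 0.04. The members were higher than the former by 0.03 on replicate 1 and 0.04 on replicate 2 (0.03 ± 0.01, SD, n = 2) and lower than the latter by 0.03 and 0.07 (-0.05 ± 0.03, SD, n = 2), a split by interval that was added after the data were seen. The signs held under every alternative processing that was run, but the sizes did not. The difference from the former ran from 0.01, with normexp background correction or the brightness trend removed, over 0.02, with only probes well above background, to 0.06 before dye normalization, and that from the latter shrank to -0.01 with normexp. With both intervals pooled, at 0.09 and -0.0067 over 3437 probes, the opposite differences largely cancelled, and the members minus the pool gave -0.0028 on replicate 1 and -0.02 on replicate 2, with a mean of -0.01 ± 0.01 (SD, n = 2), which was -0.02 with only probes well above background and -0.0025 with normexp. The exact sign-flip permutation test was run for the pooled difference alone (p = 0.5). Over 2 arrays it allows no p below 0.5, so it cannot decide whether that difference departs from 0. The differences from each interval were not tested.

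The enlarged intervals leave 3 stretches of chromosome 2, and these differed in level. The proximal stretch, from 63068 to 104959879, held 7004 probes with mean levels of 0.14 on replicate 1 and 0.01 on replicate 2. The middle stretch between the intervals, from 130001747 to 139991301, held 434 probes with levels of 0.46 and 0.23. The distal stretch, from 165006042 to 258191196, held 7659 probes with levels of 0.01 and -0.07. In both rats the order was the same, with the middle stretch highest and the distal stretch lowest. The proximal minus the distal stretch was 0.13 on replicate 1 and 0.09 on replicate 2, a mean of 0.11 ± 0.03 (SD, n = 2), for which the exact sign-flip permutation test over 2 arrays allows no p below 0.5. Normexp background correction lowered the middle stretch from a mean of 0.35 to 0.03 and the proximal stretch from 0.08 to -0.04, below 0, and brought the distal stretch from -0.03 to -0.06. Removal of the trend on input brightness left 0.22 in the middle and 0.04 in the proximal stretch, which was at 0.13 before dye normalization. The distal stretch was slightly above 0 before dye normalization (0.0026), in the authors' uncentred table (0.0066) and in Agilent's uncentred log ratio (0.0033).

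Both ends of the chromosome were above 0. The 175 probes of the first 3 Mb had levels of 0.35 on replicate 1 and 0.05 on replicate 2, and the 379 probes of the last 3 Mb had levels of 0.15 and 0.03. The rats differed at the proximal end by more than its mean level of 0.20 ± 0.22 (SD, n = 2). The mean of the distal end was 0.09 ± 0.08 (SD, n = 2), and 0.16 before dye normalization. Neither end kept its level with normexp background correction, which left 0.03 at the proximal end and -0.05 at the distal end.

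Averages over 10 Mb blocks showed a high proximal end, a lower part after it, a long high part from 60 to 170 Mb outside the enlarged intervals and a lower, uneven distal part. Of the 22 blocks, limma called 9 above 0 (40.9%) and 3 below 0 (13.6%) at an adjusted p under 0.05, whereas over the 277 blocks of the genome 18.1% were called above and 34.7% below. All 12 called blocks had the same sign on both arrays. A call favours this, since it needs a mean far from 0 against the pooled spread between rats. Of the other blocks, 6 were above 0 on replicate 1 and below 0 on replicate 2, and none showed the opposite order. The highest block was the part from 165 to 170 Mb, with 267 probes and levels of 0.54 on replicate 1 and 0.31 on replicate 2 (mean 0.42, limma adjusted p = 6.05e-09). Over the alternatives limma's adjusted p for this block ran from 3.50e-10, with only probes well above background, to 0.354, with normexp, and it was 0.00622 in the authors' uncentred table and 0.0190 in Agilent's log ratio. In the uncentred table and the log ratio the level of the block was higher, at 0.46 and 0.45. Limma's prior degrees of freedom were 4.98 and 3.45 there, against infinite in the main fit. Each of the 5 fragments of 1 Mb in this block was called above 0, with means from 0.30 to 0.59. The block from 130 to 140 Mb followed, with 0.46 and 0.23 (mean 0.35, limma adjusted p = 2.11e-06).

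At the proximal end, the block from 0 to 10 Mb had levels of 0.38 and 0.12 on replicates 1 and 2, and the block from 10 to 20 Mb had 0.38 and 0.22. Their means of 0.25 and 0.30 were the highest of the proximal stretch. The next block, from 20 to 30 Mb, was called below 0, with -0.16 on both replicates (limma adjusted p = 0.0214). From 30 to 60 Mb no block was called, with means of -0.12, 0.02 and 0.01 in order. From 60 Mb to the first enlarged interval each block was called above 0, with means of 0.15, 0.20, 0.16 and 0.17 for the blocks from 60 to 100 Mb and 0.24 for the part from 100 to 105 Mb. These 5 blocks were also above 0 on each array, with 0.21 to 0.33 on replicate 1 and 0.08 to 0.15 on replicate 2.

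Beyond 170 Mb no block was called above 0, although before dye normalization the block from 210 Mb rose from 0.07 to 0.14 and was called (limma adjusted p = 0.0476, against 0.360 in the main fit and up to 0.767 over the alternatives). The blocks from 180 to 190 Mb and from 190 to 200 Mb were called below 0, with -0.11 and -0.20 on replicates 1 and 2 in the former and -0.18 and -0.21 in the latter (limma adjusted p = 0.0269 and 0.00643). The other distal blocks had means between -0.09 and 0.07. With normexp background correction limma called 0 of the 22 blocks in either direction, and without adjustment 0 above and 3 below had a p under 0.05. The 5 blocks from 60 to 105 Mb then fell below 0, while the other 4 blocks called above 0 fell from 0.25, 0.30, 0.35 and 0.42 to 0.0071, 0.01, 0.03 and 0.04. With the trend on input brightness removed, 5 blocks were called above 0, and the 4 blocks from 60 to 100 Mb lost their call, with means of 0.08, 0.12, 0.09 and 0.12 (limma adjusted p = 0.282, 0.104, 0.234 and 0.0935). The block from 90 Mb also lost it with only probes well above background (0.13, limma adjusted p = 0.0632), as did the block from 20 Mb (-0.13, limma adjusted p = 0.0726). The block from 180 Mb lost its call with the trend removed (-0.13, limma adjusted p = 0.0812) and in Agilent's log ratio (-0.12, limma adjusted p = 0.0502).

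**Figure D2:**
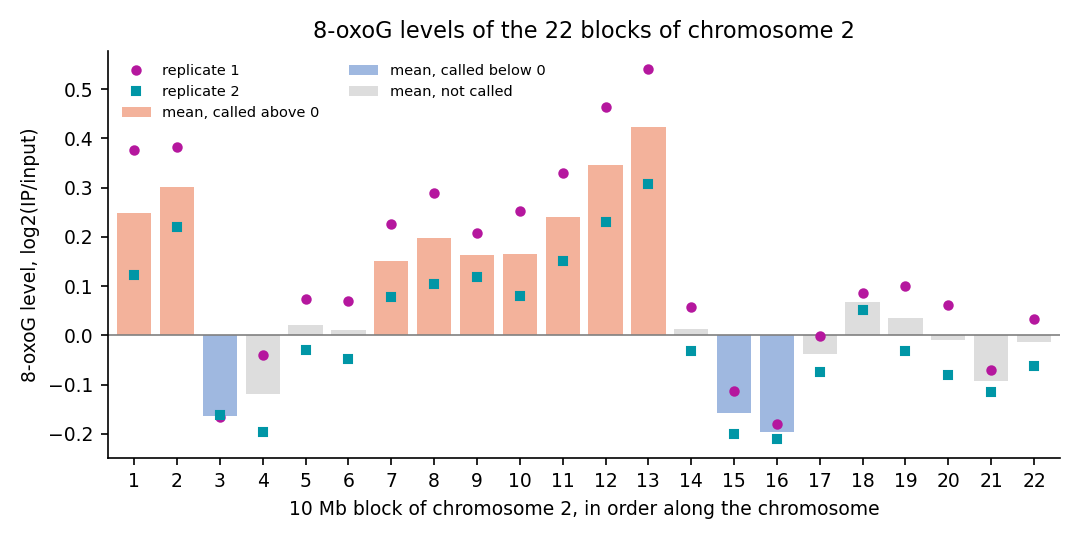
Mean 8-oxoG level, log2(IP/input), of the 22 blocks of chromosome 2 in order along the chromosome, as bars for the mean of both arrays and a point for each replicate, with bar colour giving limma's call. Blocks 11 and 13 are cut to 5 Mb by the enlarged intervals, and blocks 7 to 13 are all above 0 on both replicates.

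On the scale of 1 Mb, more fragments lay above 0 than below. The 209 fragments held a median of 65 probes, and the middle 50% of their levels lay between -0.13 and 0.30, around a median of 0.06 and with an SD of 0.27. At an adjusted p under 0.05, limma placed 62 fragments above 0 (29.7%) and 19 below 0 (9.09%), against 20.9% and 20.7% of the 2681 fragments tested over the genome. The pooled standard error of a fragment was 0.10. It was the same for every fragment, from 1 to 176 probes, so the calls took no account of probe number. All 81 called fragments had the same sign on both arrays, as a call by itself favours. Among the 21 chromosomes, the share called below 0 was lowest on chromosome 2, while the share called above 0 was exceeded on chromosomes 13 (33.0%), 11 (31.8%) and 15 (30.0%). These shares are descriptions, and no test compared them between chromosomes.

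The counts depended on the processing. With normexp background correction, which also used median signals and an offset of 50, limma called 1 fragment above and 3 below 0. Of the fragments called in the main fit, 53 of the 62 and each of the 19 kept their sign. With the trend on input brightness removed, 36 were called above and 8 below, of which 35 and 8 were among the fragments called without that step. With fragments summarised by the median of their probes, 65 were called above and 4 below. A grid shifted by 500 kb raised both counts, to 75 above and 31 below among 211 fragments.

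Called fragments were spread unevenly over the chromosome. The proximal stretch had 36 of its 105 fragments called above 0 and 6 below, the middle stretch 7 of 10 and 0, and the distal stretch 19 of 94 and 13. Fragments called above 0 often stood side by side. The longest run covered 12 fragments, from 63 to 75 Mb, and the next runs covered 5 each, from 133 to 138 Mb and from 165 to 170 Mb. No run of fragments called below 0 was longer than 2, and runs of that length lay at 180 to 182, 191 to 193, 235 to 237 and 242 to 244 Mb. Within the run of 12, levels ranged from 0.36 to 0.80 on replicate 1 and from 0.08 to 0.75 on replicate 2, and limma's adjusted p from 2.74e-09 to 0.00994.

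Among fragments of 50 or more probes whose sign was shared by the arrays, the highest was that from 69000001 to 70000000, with 51 probes and levels of 0.80 on replicate 1 and 0.39 on replicate 2 (mean 0.60, limma adjusted p = 1.19e-06). Of its probes, 54.9% were above 0 in each rat and 9.80% below 0 in each rat. The fragment from 222000001 to 223000000 followed, with 0.69 and 0.38 (mean 0.53, limma adjusted p = 1.42e-05). It lies in a block that was not called, so a high fragment stood within a part of the chromosome near the array median. The fragments from 14000001 (0.63 and 0.37), 102000001 (0.71 and 0.20) and 99000001 (0.65 and 0.26) were next. All 5 were higher on replicate 1 than on replicate 2. All 5 stayed above 0 with normexp background correction but lost their call, with means of 0.0057 to 0.07 and limma adjusted p from 0.271 to 0.943. The fragment from 99000001 also lost it with the trend on input brightness removed (0.29, limma adjusted p = 0.0502).

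The lowest fragment was that from 228000001 to 229000000, with 74 probes and levels of -0.34 on replicate 1 and -0.48 on replicate 2 (mean -0.41, limma adjusted p = 9.15e-04). Of its probes, 52.7% were below 0 in each rat and 18.9% above 0 in each rat. The fragments from 192000001 (-0.34 and -0.47) and from 180000001 (-0.35 and -0.44) reached nearly the same level, and the latter held 176 probes, the most of the 209 fragments. The fragments from 62000001 (-0.18 and -0.50) and 191000001 (-0.30 and -0.38) completed the lowest 5. All 5 stayed below 0 with normexp background correction, and only the fragment from 192000001 kept its call (-0.16, limma adjusted p = 0.0303), while the others had limma adjusted p from 0.0523 to 0.222. The fragment at 62 Mb borders directly on the run of 12 fragments called above 0.

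Few fragments were thinly covered. Only 3 of the 209 held fewer than 20 probes, and 1 of them was called, the fragment at the chromosome start with 8 probes and levels of 0.93 on replicate 1 and 0.97 on replicate 2. This fragment was chosen after its values were seen. When only fragments with at least 20 probes were fitted, 63 were called above and 20 below 0.

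Fragment levels of the 2 rats rose and fell together along the chromosome. Pearson's r between the arrays was 0.785 over the 209 fragments and Spearman's rho was 0.781. Over the 2472 fragments of the other chromosomes they were 0.794 and 0.774. These are correlations over positions that share an array, a probe set and an input sample in each rat, so fragments are not independent replicates. Both rats were above 0 in 98 fragments and below 0 in 66, and they had opposite signs in 45. In 33 of these 45 replicate 1 was above 0. Over all 209 fragments, replicate 1 was higher by a mean of 0.13, with an SD of 0.19. The same lean was seen on the other chromosomes, where replicate 1 was higher by a mean of 0.10.

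**Figure D3:**
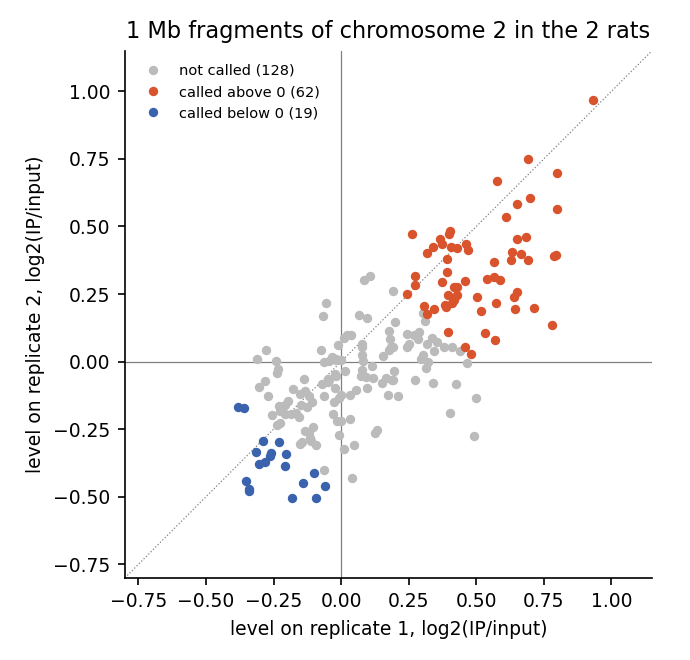
Level of each of the 209 fragments of 1 Mb on replicate 1 (horizontal axis) and replicate 2 (vertical axis), log2(IP/input), coloured by limma's call, with a dotted line of equal levels. The 62 fragments called above 0 all lie at the upper right, the 19 called below 0 in the lower left, and most points lie under the dotted line.

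The likeness between rats declined with distance. When fragments on one array were set against those 1 Mb away on the other array, r was 0.50, and it was 0.29 at 2 Mb, 0.27 at 3 Mb, 0.12 at 5 Mb and -0.09 at 20 Mb. On the other chromosomes the values were 0.55, 0.39, 0.30, 0.19 and 0.05 at the same distances.

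After each probe was averaged with all probes up to 500 kb away on either side, the members formed 29 regions above 0 (8-oxoG-rich) and 28 below 0 (8-oxoG-depleted) of 1 Mb or longer, and 18 and 29 with normexp background correction. Their median lengths were 2.19 Mb for rich and 2.05 Mb for depleted regions. Rich regions reached over 5 Mb in 8 cases, and depleted regions in 1, but on replicate 2 alone these numbers were 3 and 2, and the longest rich region had 8.55 Mb. Of all regions of any length, the rich ones covered 56.6% of the length but held 48.5% of the probes, at 62.2 probes per Mb, while the depleted ones covered 40.7% with 51.5% of the probes, at 91.7 per Mb. Each of the 29 rich regions had a mean above 0 on both arrays, and 26 of the 28 depleted regions had a mean below 0 on both. Since the regions were defined on these levels, their means are given without a test.

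The longest rich region ran from 63069961 to 76471896 over 13.4 Mb. Its 592 probes had mean levels of 0.55 on replicate 1 and 0.35 on replicate 2 (0.45 ± 0.14, SD, n = 2). Limma called 11 of the 12 whole fragments inside it above 0. The rich region from 130001747 to 139870525, which begins at the border of an enlarged interval, had 0.48 and 0.23. Nearer the chromosome start lay the regions from 63068 to 9016426, with 0.40 and 0.15, and from 12749416 to 20138284, with 0.43 and 0.25. The region from 96950645 to 104036378 had 0.49 and 0.19. The 5 longest rich regions were thus higher on replicate 1 in each case. With normexp background correction all 5 stayed above 0, at 0.01 to 0.04. Removal of the trend on input brightness lowered the longest to 0.30 and the region from 130001747 to 0.22.

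The longest depleted region ran from 21094487 to 31977750 over 10.9 Mb and held 969 probes. Its levels of -0.21 on replicate 1 and -0.19 on replicate 2 were nearly equal (-0.20 ± 0.01, SD, n = 2), although limma called only 2 of its 9 whole fragments. The next were all distal. The region from 189134914 to 193821622 had -0.22 and -0.30, that from 178613423 to 183200353 had -0.23 and -0.29, that from 193842259 to 198101223 had -0.20 and -0.21, and that from 241971519 to 245818575 had -0.20 and -0.29. These 5 depleted regions differed less between the rats than the 5 longest rich ones. With normexp background correction these 5 stayed below 0, at -0.11 to -0.08. On single replicates the longest depleted region was shorter, with 9.02 Mb on replicate 1 and 7.78 Mb on replicate 2.

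**Figure D4:**
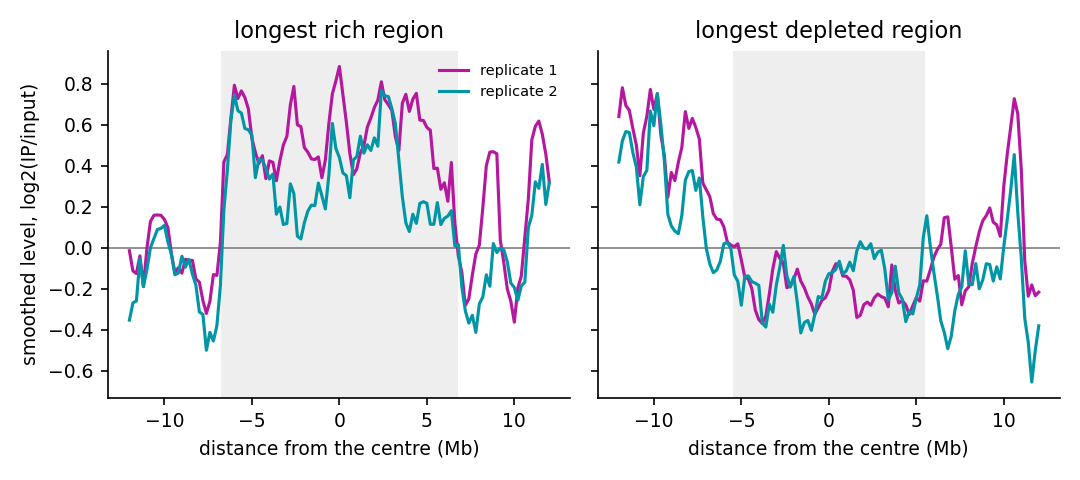
Smoothed level, log2(IP/input), of each replicate by distance from the centre (Mb) of the longest rich region, 13.4 Mb long, and of the longest depleted region, 10.9 Mb long, with the region shaded grey. Both replicates rise steeply at the left border of the rich region, and replicate 2 lies lower than replicate 1 over much of its right part.

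The smoothed profile was on the same side of 0 in both rats at 78.6% of the 15097 probe positions. It was highest at the start of the chromosome, at 63068, with 1.53 on replicate 1 and 1.49 on replicate 2, but only 5 probes were averaged there. With at least 20 probes averaged, a limit chosen after the data were seen, the highest point was at 222171692, with 1.00 on replicate 1 and 0.66 on replicate 2. The lowest was at 38210093, where replicate 1 was at -0.20 and replicate 2 at -0.68 over 47 probes.

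Some neighbouring fragments differed sharply in level. Over 343 pairs of adjacent 500 kb fragments with at least 20 probes each, the step went the same way on both arrays in 68.5%, and its median size was 0.18 with a 95th percentile of 0.53. The steps of the rats had r = 0.46. The part of scatter between single probes in the size of the steps was not tested. The largest step was at 63.0 Mb, the left border of the longest rich region. There the level rose from -0.27 to 0.61 on replicate 1 and from -0.64 to 0.66 on replicate 2. At 51.5 Mb it fell from 0.62 to -0.44 on replicate 1 and from 0.35 to -0.38 on replicate 2. At 95.5 Mb it rose by 0.76 and 0.86, at 7.0 Mb by 0.80 and 0.78, and at 68.0 Mb by 0.32 and 0.97. The steps at 95.5 and 7.0 Mb were nearly equal in the rats, whereas those at 63.0 and 68.0 Mb were larger on replicate 2. These steps were selected for their size and direction and carry no test.

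Single probes varied far more than fragments. Their SD was 0.98 on replicate 1 and 1.24 on replicate 2, and the average of both arrays exceeded 1 in 13.9% of them and was under -1 in 11.7%. On the other chromosomes these shares were 11.2% and 13.2%. Limma called 0 of the 15097 probes at an adjusted p under 0.05, the smallest being 0.298. Without adjustment, 1451 above 0 (9.61%) and 972 below 0 (6.44%) had a p under 0.05, against 7.51% and 7.18% over all 227810 probes tested. With only probes well above background, limma again called 0 of 11769, which include 1 probe kept by part of its spots, and without adjustment 1309 above 0 (11.1%) and 917 below 0 (7.79%) had a p under 0.05, against 8.82% and 8.56% over all 178091 probes of that fit. Both arrays gave the same sign for 64.1% of the probes, and r between them was 0.378.

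The 5 lowest single probes had input intensities above the median of the members on each array, and the 5 highest had input intensities below it. Input is the denominator of the level by which these probes were chosen, so the choice itself favours this pattern. A_86_P00788272, at 31977691 to 31977750, had the lowest reproducible level, with -4.82 on replicate 1 and -4.65 on replicate 2. Its IP intensity was 10.04 and 9.23, and its input intensity was 282 and 222, in the same order. It is the last probe of the longest depleted region. A_86_P01317749, at 236354838 to 236354897, had levels of -4.23 and -3.54. All 5 lowest probes lay in fragments called below 0. Each probe is itself part of the mean of its fragment, so this overlap is partly built in. The calls were not repeated without these probes.

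Of the 5 highest probes, only A_86_P00940242, at 89380615 to 89380674, lay in a fragment called above 0. It had levels of 2.78 on replicate 1 and 2.80 on replicate 2, with IP intensities of 342 and 228 against input intensities of 49.5 and 31.2. A_86_P01255270, at 215009000 to 215009059, had 2.79 and 3.14, in a fragment that was not called. A_86_P00791423, at 33046478 to 33046537, had 2.68 and 3.55 although the mean of its fragment was -0.20. High single probes were thus not limited to high fragments.

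Brightness and probe number moved with the level. In the 62 fragments called above 0, the median input intensity was 44.8 on replicate 1 and 32.9 on replicate 2, and in the 19 called below 0 it was 121 and 99.0. The IP intensity differed less, with 74.5 and 48.5 in fragments called above 0 and 93.9 and 77.0 in those called below. Fragments called above 0 held a median of 46 probes and those called below 0 a median of 107, with 77 in the 128 that were not called. The share of probes well above background was 70.0% in fragments called above 0 and 81.4% in those called below. High levels thus came with dim input and sparse probes. Over the 209 fragments, the level had a correlation of -0.68 with log2 of the input intensity, which is also the denominator of the level, and of -0.54 with the number of probes. On the other chromosomes these were -0.65 and -0.38, over 2472 fragments. The part of brightness and probe number in the calls was not tested beyond the removal of the brightness trend.

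**Figure D5:**
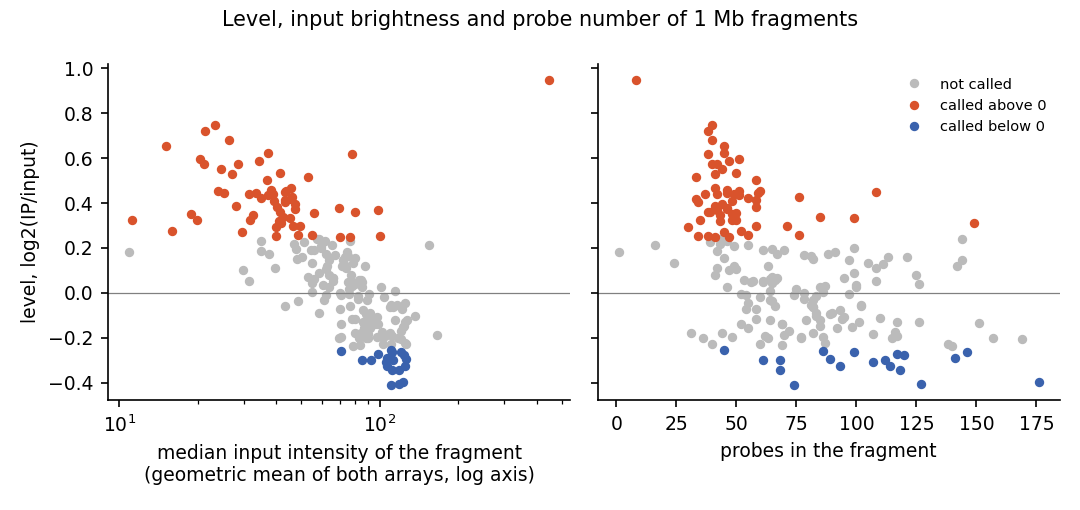
Mean level of both arrays, log2(IP/input), of the 209 fragments against their median input intensity (log axis, geometric mean of both arrays) and against their number of probes, coloured by limma's call. Fragments called above 0 lie mostly at low input intensity and around the median of 46 probes, and the single bright fragment at the top is the one with 8 probes.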

How the data were processed

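The processed intensity of IP and input, as deposited by the authors, came from Agilent Feature Extraction 10.5.1.1, which had subtracted background, removed spatial trends and normalized the dyes by lowess. The files of the authors also hold intensity before dye normalization, median intensity of spot and background, and the log10 ratio of IP over input. The authors further deposited log2 values for the series, which equal log2 of the processed IP over input intensity and are not centred.

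From the processed intensities log2(IP/input) was computed, 305 spots with an outlier mark and all controls were left out of the 243466 spots, each array was centred on its median, and spots of a probe were averaged, without loess or quantile normalization. Means per array were taken over chromosomes, 10 Mb blocks with at least 50 probes, 1 Mb fragments and probes of the whole genome. The enlarged intervals of chromosome 2 were left out of these fits. The means were tested against 0 with limma 3.58.1 in R 4.3.3 (lmFit, eBayes, two-sided, Benjamini-Hochberg at 0.05), with 1 residual degree of freedom per feature. In the main fits of chromosomes, blocks and 1 Mb fragments limma's prior degrees of freedom were infinite, so all features of a fit took 1 pooled standard error, on which their p-values rest. They were 4.70 for single probes and finite in some alternative fits. With only probes well above background they were 2.15 for the chromosome differences, 41.8 for 1 Mb fragments and 7.45 for probes, before dye normalization 33.0, 19.3 and 6.89 for chromosome differences, blocks and fragments, with the brightness trend removed 20.3 for fragments, with 500 kb fragments 16.2, and for blocks 4.98 in the authors' uncentred table and 3.45 in Agilent's log ratio. Python 3.11.15, numpy 2.4.6, pandas 2.3.3, scipy 1.17.1, statsmodels 0.14.6 and matplotlib 3.10.9 were used for the rest.

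Regions named are the stretches, the 10 Mb blocks, the 5 longest smoothed regions, the 5 highest and lowest fragments of 50 or more probes with a sign shared by the arrays, the 3 Mb at each end, the 5 largest steps between 500 kb fragments with at least 20 probes, and the 5 highest and 5 lowest probes well above background, ranked by the smaller absolute level of the arrays. The members and lists were chosen with earlier results of these data known. Alternatives covered the background correction, dye normalization, centring, filters, the brightness trend (lowess over a fraction of 0.2), each replicate alone, the summary, grid and size of fragments, and the smoothing. Normexp was applied with an offset of 50 to median signals, not to the processed intensities. This alternative therefore changed several choices at once, and their parts were not tested. Genes were not analysed, since the files pair no probe with a gene name and no annotation or genome of rn4 was used here, so no probe sequences are given. Each slide held 1 array, so slide and rat cannot be told apart.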

Additional observations from a re-analysis of the deposited data

How the results depend on the processing

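Normexp background correction, run on median signals with an offset of 50, changed most results. It moved the mean of chromosome 2 to -0.049 and its difference from the other chromosomes to 0.0098 (limma, adjusted p = 0.904), and left 1 fragment above and 3 below 0 (3 and 42 at a p under 0.05 without adjustment), 0 blocks above and 0 below by limma (0 and 3 unadjusted), and 18 rich regions. It turned the proximal stretch to -0.037, the last 3 Mb to -0.048 and 10 blocks below 0. These blocks, by their start, were 40 Mb (-0.051), 50 Mb (-0.064), 60 Mb (-0.022), 70 Mb (-0.0085), 80 Mb (-0.020), 90 Mb (-0.014), 100 Mb (-0.018), 170 Mb (-0.062), 210 Mb (-0.035) and 220 Mb (-0.060).

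Removal of the trend on input brightness gave 36 fragments above and 8 below, 5 blocks above, a difference from other chromosomes of 0.081 (limma, adjusted p = 0.0788), r = 0.691 between the rats and -0.0039 for the block from 50 Mb. Only probes well above background gave 0.081 (limma, adjusted p = 0.167) for that difference and -0.022 for the members minus the enlarged intervals. Before dye normalization r was 0.837, the distal stretch 0.0026 and the blocks from 230 and 250 Mb 0.028 and 0.031. The authors' uncentred table gave 0.0066, 0.028 and 0.023 for these, and Agilent's log ratio 0.0033, 0.025 and 0.019.

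Medians gave 4 fragments below and r = 0.716, and the grid shifted by 500 kb gave 31 below and r = 0.848. Of 416 fragments of 500 kb, 99 were called above, against 62 of 209 in the main fit, and r was 0.704. A level beyond 0.25 on both arrays gave 40 above and 9 below. The cause of these changes was not tested.

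With single replicates, the mean level ranged from -0.024 to 0.086, the difference from other chromosomes from 0.078 to 0.11, that from the enlarged intervals from -0.018 to -0.0028, and the numbers of rich and depleted regions from 29 to 35 and from 22 to 30. Of 344 values of 50 named levels, 268 kept sign, call and size within the spread between rats, and 22 changed sign. Limma's calls were not run without each replicate, since 1 array leaves no residual degrees of freedom, nor were the alternatives for genes. Keeping the enlarged intervals in the fit, added after seeing the data, gave 62 above and 19 below. Rats could not be paired between groups, because the design has a single group. Differences between parts of the genome were taken within each array. Dim probes are limited by signal over background, which 11768 of the 15097 clearly exceeded in IP and input of each rat.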
